A study of Homo sapiens with 6 samples.

Results

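HHIP and 8 further genes of the Hedgehog pathway, SHH, IHH, PTCH1, SMO, SUFU, GLI1, GLI2 and GLI3, were examined by RNA-seq in KYSE70, a human cell line of esophageal squamous cell carcinoma (ESCC), and in NRF2null-KYSE70. They were taken by symbol from the 58884 genes of the expression table, and each of the 9 symbols matched 1 gene. HHIP was singled out because its RNA was among the largest increases between the 2 lines, and the other members were added as its pathway with those results known. For this reason the differences of the 9 members are given as a description and without a p-value.

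KYSE70 is established in culture and carries a mutant NFE2L2, the gene encoding the transcription factor NRF2. NRF2null-KYSE70 was grown from a single KYSE70 clone after CRISPR-Cas9 cutting of exon 2 of NFE2L2, so the comparison is of 1 clone with the line it came from. The study reports a faint, smaller NRF2 band in this clone and states that the loss of NRF2 in it was incomplete. Each group consisted of 3 libraries of untreated cells in RPMI1640 medium with serum. Nothing stated that the replicates came from separate cultures, so the p-values measure the spread between libraries, which may be technical. Reads assigned to genes numbered 52072801 to 63975313 per library. NFE2L2, the targeted gene, had 9839, 9906 and 10040 normalized counts (reads divided by 1 size factor per library) in KYSE70 and 5803, 6041 and 6434 in NRF2null-KYSE70, so its RNA was lower in every library of the clone, at 61.4% of the parental mean. The epithelial label was checked on 10 squamous markers, all of which were expressed. Their summed normalized counts were 339401 to 347297 in KYSE70 and 262257 to 275037 in NRF2null-KYSE70. KRT5 gave the largest part of these sums, with means of 209917 and 124640. KRT5, TP63, DSG3 and PKP1 were lower in every NRF2null-KYSE70 library, whereas KRT6A, KRT14, KRT17, SOX2, CDH1 and EPCAM were higher in every one. The fibroblast genes COL1A2 and DCN and the endothelial gene KDR had no reads. The 6 fibroblast markers summed to 1384 to 1618 normalized counts in KYSE70 and 485 to 638 in NRF2null-KYSE70, most of it COL1A1. COL3A1 had means of 257 in KYSE70 and 8.46 in NRF2null-KYSE70. PDGFRB went the other way, with 0 reads in every KYSE70 library and a mean of 14.3 in NRF2null-KYSE70. The 4 leukocyte markers summed to 0 to 9.49 and 42.2 to 58.2. Most of the NRF2null-KYSE70 sum was PTPRC, whose mean was 43.6 normalized counts there, beside 0.351 for the parental line. The other leukocyte markers, CD3E, CD14 and CD68, overlapped between the lines. The 4 endothelial markers summed to 133 to 149 and 275 to 450.3, almost all of it VWF. The part of these markers in the results was not tested.

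In Hedgehog signalling, a secreted ligand such as SHH or IHH binds the receptor PTCH1 and relieves its block on SMO. Active SMO, working at the primary cilium, frees the GLI transcription factors from SUFU and from proteolytic processing, so that they switch on target genes. GLI1, PTCH1 and HHIP are classical targets, and the HHIP protein binds Hedgehog ligands at the cell surface and keeps them from PTCH1, which makes it a feedback inhibitor. In the gastrointestinal tract the ligands are typically made by the epithelium and act on the mesenchyme, and pathway activity within carcinoma cells has been described as well.

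The promoter of HHIP is shown first because HHIP had no reads in the parental line. HHIP (ENSG00000164161) lies on the plus strand of chromosome 4 from 144646156 to 144745271 (hg38). Its antisense RNA, HHIP-AS1 (ENSG00000248890), lies on the minus strand from 144642919 to 144661357, so the annotated genes overlap. In RefSeq (GRCh38.p14) their start sites are 137 bases apart and point away from each other. The windows from 250 bases before to 50 bases after each start therefore share 236 bases, which are given in capitals and are the reverse complement of each other in the 2 windows. The HHIP window is chr4:144645906-144646205 on the plus strand and the HHIP-AS1 window is chr4:144645970-144646269 on the minus strand.
HHIP: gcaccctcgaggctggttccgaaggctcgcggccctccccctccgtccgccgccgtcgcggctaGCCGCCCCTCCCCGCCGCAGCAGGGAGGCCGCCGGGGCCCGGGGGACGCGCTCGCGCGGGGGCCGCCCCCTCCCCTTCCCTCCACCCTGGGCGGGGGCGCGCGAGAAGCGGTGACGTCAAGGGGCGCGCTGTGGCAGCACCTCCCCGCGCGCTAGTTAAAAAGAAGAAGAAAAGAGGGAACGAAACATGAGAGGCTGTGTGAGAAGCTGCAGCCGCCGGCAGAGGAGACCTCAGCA
HHIP-AS1: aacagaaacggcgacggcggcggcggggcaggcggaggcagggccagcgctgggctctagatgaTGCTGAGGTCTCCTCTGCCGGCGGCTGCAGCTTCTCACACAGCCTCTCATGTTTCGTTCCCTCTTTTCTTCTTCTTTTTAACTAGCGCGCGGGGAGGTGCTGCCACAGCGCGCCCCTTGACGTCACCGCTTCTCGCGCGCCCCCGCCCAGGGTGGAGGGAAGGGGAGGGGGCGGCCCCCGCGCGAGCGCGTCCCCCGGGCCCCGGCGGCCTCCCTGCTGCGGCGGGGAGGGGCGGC
The HHIP window had a GC content of 72.7% and 36 CpG dinucleotides, more than 87.3% of the 35116 RefSeq windows of the same length. Both strands were searched for a pair of motifs. The GLI consensus was read as TGGGTGGTC and the core of the antioxidant response element, which NRF2 binds with a small MAF protein, as TGACNNNGC. Neither was found in the HHIP or HHIP-AS1 window.

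Windows were available for 7 of the 9 members, 12 windows in all, and not for GLI1 and GLI3. The GLI consensus was present in 1 of them, 1 of 5 windows of PTCH1, on the minus strand at chr9:95509217-95509516 and at an alternative start within the gene. It is shown because PTCH1 is the receptor and a classical GLI target, with the motif in capitals.
PTCH1: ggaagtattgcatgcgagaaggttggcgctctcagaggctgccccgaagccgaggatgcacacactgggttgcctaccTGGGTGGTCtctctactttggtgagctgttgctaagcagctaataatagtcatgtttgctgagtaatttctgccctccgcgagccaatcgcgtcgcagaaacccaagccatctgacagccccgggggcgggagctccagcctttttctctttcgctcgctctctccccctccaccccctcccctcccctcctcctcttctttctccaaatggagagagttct
Over all windows, 0.236% held this motif. The antioxidant response element core was present in the window of SMO, and in 13.3% of all windows. A match of letters is a description of the window and not a site of binding.

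HHIP was detected in the clone and not in the parental line. It had 0 reads in each KYSE70 library, where a count of 0 allows up to 3 reads, that is 2.67 to 3.16 normalized counts. In NRF2null-KYSE70 it had 993, 839 and 709 normalized counts, which came from 979, 856 and 621 reads. The groups did not overlap, and the mean of 847 ± 142 (SD, n = 3) was at least 297-fold higher than 3 reads in each KYSE70 library. This bound covers counting error only, and in bulk RNA a change in the share of expressing cells and a change in RNA per cell cannot be told apart. In all, 10 genes of the table had 3 reads or fewer in each KYSE70 library and a mean of at least 100 normalized counts in NRF2null-KYSE70. HHIP ranked 2nd among them by its NRF2null-KYSE70 mean, after TXK, and DTX3L was the only other gene of the 10 with no KYSE70 read. In the reverse direction 19 genes were at this floor in NRF2null-KYSE70 with a mean of at least 100 in KYSE70. HHIP-AS1 was also among the 10 genes. The KYSE70 libraries held 0, 1 and 0 reads of it and the NRF2null-KYSE70 libraries 118, 151 and 79 reads, or 120, 148 and 90.2 normalized counts, at least 41.9-fold higher. In the 3 NRF2null-KYSE70 libraries HHIP-AS1 stood at 12.1%, 17.6% and 12.7% of the normalized count of HHIP. The exons of HHIP and HHIP-AS1 share 813 bases, which are 6.81% of the HHIP exon bases and 34.0% of those of HHIP-AS1. Whether the counting used strand was not stated, so reads from this stretch cannot be told apart between the 2 genes.

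**Figure D1:**
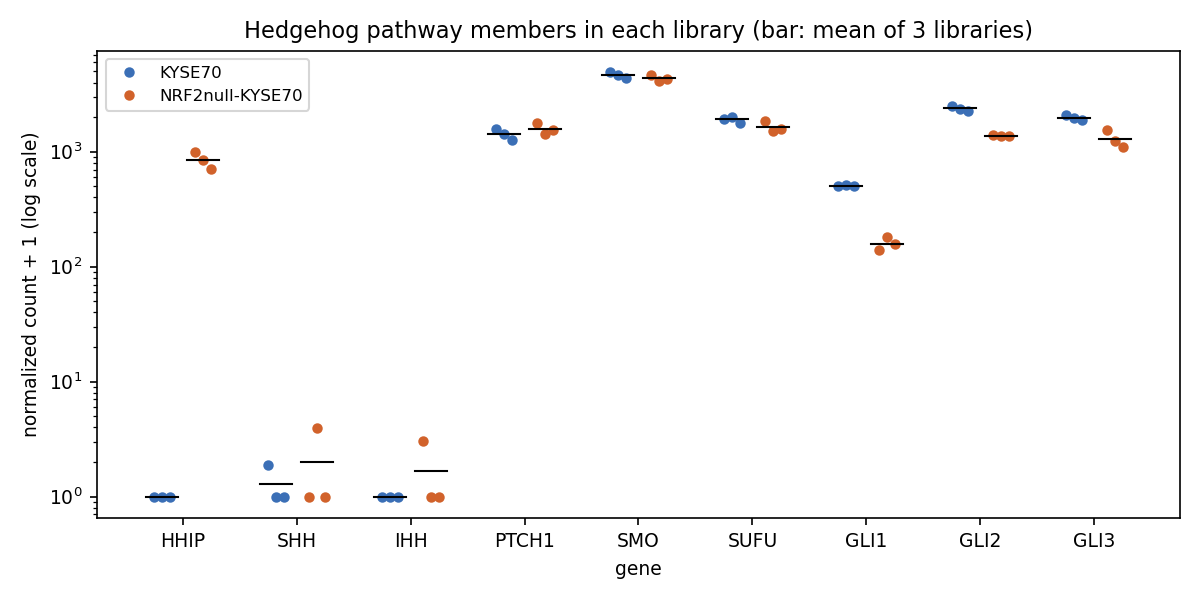
Normalized count plus 1 (log scale) of the 9 members in the 3 KYSE70 (blue) and 3 NRF2null-KYSE70 (orange) libraries, with a bar at the mean of each line. HHIP goes from 0 reads to a mean of 847, GLI1, GLI2 and GLI3 are lower in every NRF2null-KYSE70 library, and SHH and IHH stay near 0 in both lines.

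The ligands were close to absent. SHH, the ligand best known from neural tube and limb patterning (chromosome 7, 155799980 to 155812463), was read 1, 0 and 0 times in KYSE70 and 0, 3 and 0 times in NRF2null-KYSE70. IHH, the ligand of growth plate and gut epithelium (chromosome 2, 219054424 to 219060921), had 0 reads in all KYSE70 libraries and 2, 0 and 0 reads in NRF2null-KYSE70. The remaining ligand, DHH, had at most 1 read in any library. Both lines were thus at the floor for the 3 ligand genes, no fold is given, and a difference was not detectable at this depth.

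The receptor, the transducer and SUFU were expressed in both lines at levels that overlapped. PTCH1 (chromosome 9, 95442980 to 95517057) had 1566, 1419 and 1275 normalized counts in KYSE70 and 1762, 1437 and 1541 in NRF2null-KYSE70. The libraries of the 2 lines overlapped, and the log2 difference, NRF2null-KYSE70 minus KYSE70, was 0.15 (SE 0.092). SMO, the membrane protein that PTCH1 holds inactive (chromosome 7, 129188633 to 129213545), had 4941, 4681 and 4388 normalized counts in KYSE70 and 4658, 4114 and 4283 in NRF2null-KYSE70. Its groups also overlapped, with a log2 difference of -0.10 (SE 0.062). SUFU, which binds the GLI proteins and holds them in the cytoplasm (chromosome 10, 102503972 to 102633535), had 1920, 2019 and 1782 normalized counts in KYSE70 and 1846, 1505 and 1585 in NRF2null-KYSE70. Here only the highest NRF2null-KYSE70 library reached into the KYSE70 range, and the log2 difference was -0.22 (SE 0.082).

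The GLI factors were all lower in NRF2null-KYSE70, to different extents. GLI1, an activator whose own transcription is a readout of the pathway (chromosome 12, 57459785 to 57472268), had 501, 516 and 503 normalized counts in KYSE70 and 139, 179 and 155 in NRF2null-KYSE70. The mean went from 507 ± 8.33 to 158 ± 20.4 (SD, n = 3 in each line), 31.2% of the parental level, with a log2 difference of -1.68 (SE 0.13). GLI2, the main activator of the family (chromosome 2, 120735623 to 120992653), had 2506, 2358 and 2276 normalized counts in KYSE70 and 1408, 1377 and 1360 in NRF2null-KYSE70. It stood at 58.0% of the parental level, with a log2 difference of -0.78 (SE 0.062), and varied least of the GLI genes within the clone. GLI3, whose processed form acts mainly as a repressor (chromosome 7, 41960949 to 42264100), had 2070, 1955 and 1888 normalized counts in KYSE70 and 1550, 1236 and 1103 in NRF2null-KYSE70. It stood at 65.8% of the parental level, with a log2 difference of -0.62 (SE 0.10). In each of these 3 genes the highest NRF2null-KYSE70 library was below the lowest KYSE70 library. The classical targets thus went in different directions, with HHIP present only in the clone, GLI1 lower in it and PTCH1 overlapping between the lines.

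Of the 9 members, 7 had a mean of at least 10 normalized counts and entered the fit over all genes, while SHH and IHH did not. In 4 of the 7 no library of 1 line fell within the range of the other, with HHIP higher and GLI1, GLI2 and GLI3 lower. HHIP was chosen for its increase and entered the fit only through NRF2null-KYSE70, so its lack of overlap was given in advance. Of the 6 other members, 3 did not overlap. Over all 15994 genes tested, 63.4% did not overlap, 32.1% higher and 31.3% lower. The median log2 difference of the 7 members was -0.22, and -0.42 without HHIP, beside -0.01 for all genes tested. The first NRF2null-KYSE70 library in the table was the highest of its line in 6 of the 7 members, all but GLI1, and in 40.8% of all genes tested. The third KYSE70 library was the lowest of its line in 5 of the 6 members other than HHIP, and in 35.99% of all genes tested.

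Levels were compared between members after division by the length of their exons in kilobases. In KYSE70 the order was SMO, GLI2, SUFU, GLI3, GLI1 and PTCH1, with means of 983, 308, 277, 143, 111 and 82.2 normalized counts per kb of exon. Every library of each gene in this order was above every library of the next. In NRF2null-KYSE70 the order was SMO, SUFU, GLI2, GLI3, PTCH1, HHIP and GLI1, with means of 916, 239, 179, 93.92, 91.4, 71.0 and 34.6. Within it GLI3 and PTCH1 overlapped, as did PTCH1 and HHIP, while GLI1 was below HHIP in all libraries. HHIP reached 71.0 ± 11.9 (SD, n = 3) normalized counts per kb, a level above that of 24.5% of the 12794 protein-coding genes tested. SMO was above 77.4% of them and GLI1 above 18.0%, whereas GLI1 had been above 30.3% in KYSE70. The same percentile went from 51.6% to 38.5% for GLI2, from 34.7% to 27.9% for GLI3, from 49.0% to 44.7% for SUFU and from 26.0% to 27.6% for PTCH1.

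**Figure D2:**
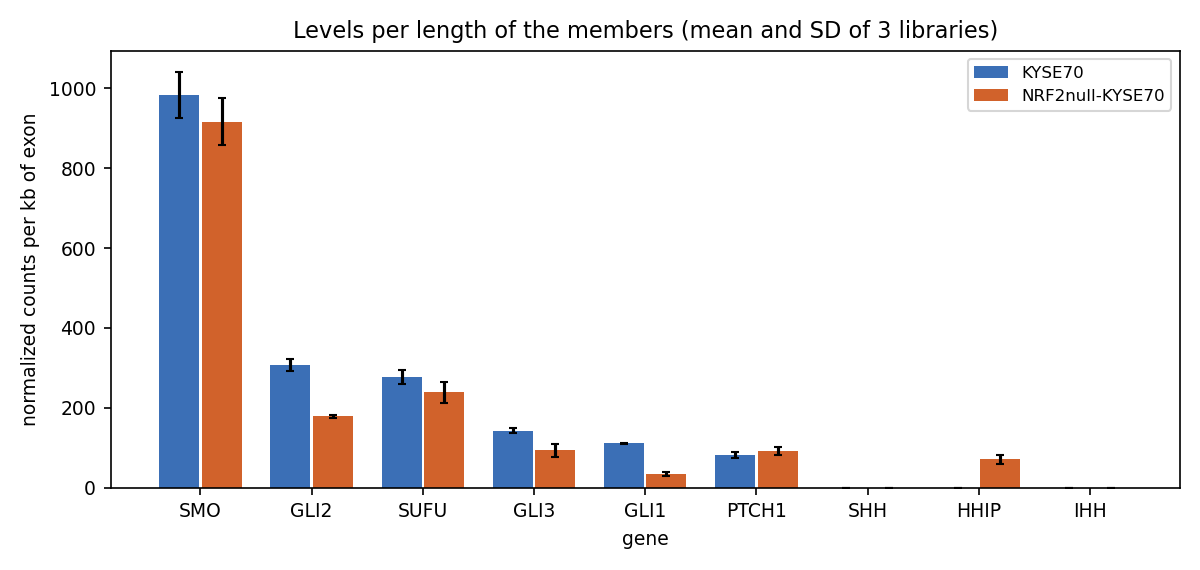
Mean normalized counts per kb of exon, with SD over 3 libraries, of the 9 members in KYSE70 (blue) and NRF2null-KYSE70 (orange), ordered by the KYSE70 mean. SMO is highest in both lines, at 983 and 916, and HHIP has a bar only in NRF2null-KYSE70, at 71.0.

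The other genes of the pathway were taken from a list of 72 genes. It was written from general knowledge, but with earlier results of these data known. Of these genes, 64 were tested with limma over all genes. The cut-offs of the study were used, a log2 difference of at least 1 in either direction together with an adjusted p under 0.05. Of the 64, 9 passed (14.1%), 4 higher and 5 lower in NRF2null-KYSE70, beside 14.7% of all genes tested, 7.23% higher and 7.43% lower. With the adjusted p alone, 25 were higher and 17 lower, together 65.6% beside 57.6% of all genes tested, of which 29.3% were higher and 28.3% lower. Their median log2 difference was 0.07. The share of called genes in the whole list was thus near that of all genes. Because earlier results were known when the list was written, the shares given below for its parts are descriptions. Some of these parts hold few genes.

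**Figure D3:**
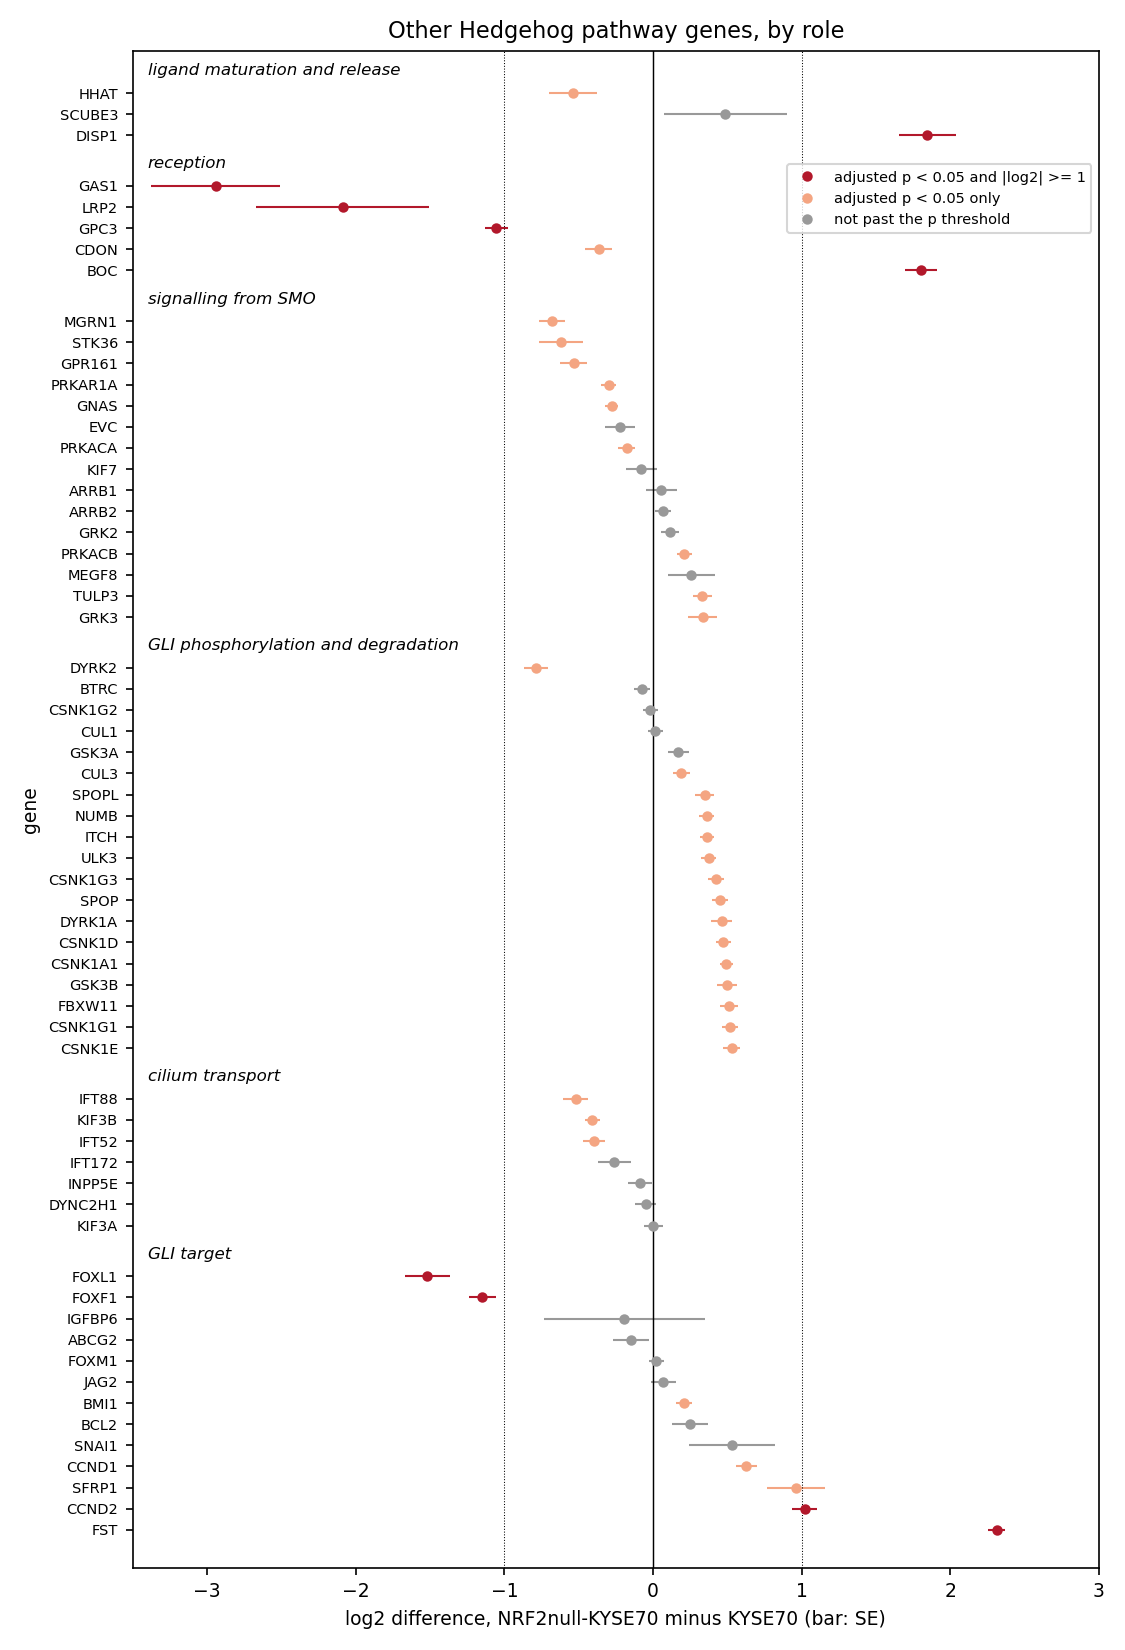
Log2 difference, NRF2null-KYSE70 minus KYSE70, with SE, of the tested pathway genes that are not members and are reported here, grouped by role (dark red for both thresholds, light orange for the adjusted p alone, grey for neither). The genes past both thresholds lie among ligand release, reception and targets, from -2.94 for GAS1 to 2.31 for FST, and the 14 higher genes of GLI phosphorylation and degradation lie between 0.19 and 0.53.

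Among genes that mature and release the ligand, DISP1, which releases lipid-bearing ligand from the cell, had 104, 81.6 and 64.3 normalized counts in KYSE70 and 277, 315 and 299 in NRF2null-KYSE70. It rose 3.56-fold (log2 difference 1.85, SE 0.19, limma adjusted p = 3.38e-06). HHAT, the acyltransferase that palmitoylates the ligand, was lower by the adjusted p alone (log2 difference -0.54, limma adjusted p = 0.0124). SCUBE1 and SCUBE2, secreted proteins that carry the ligand, did not reach the filter, with at most 20 and 10 reads in any library.

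Of the 6 genes of reception, 4 passed both thresholds (66.7%, beside 14.7% of all genes tested), and they went in both directions. BOC, a co-receptor that binds the ligand together with PTCH1, had 783, 585 and 714 normalized counts in KYSE70 and 2468, 2135 and 2643 in NRF2null-KYSE70. It rose 3.48-fold (log2 difference 1.80, SE 0.11, limma adjusted p = 2.2e-08). The related co-receptor CDON was lower by the adjusted p alone (864 ± 62.6 and 670.3 ± 42.8, SD, n = 3 in each line, log2 difference -0.37, limma adjusted p = 0.00347). GAS1, the remaining co-receptor and anchored by lipid, had 149, 126 and 134 normalized counts in KYSE70 and 8.11, 38.2 and 14.8 in NRF2null-KYSE70. It fell to 14.9% of the parental level (log2 difference -2.94, SE 0.43, limma adjusted p = 7.69e-05), with a wide spread in the clone. The 3 co-receptors therefore did not move together. LRP2, an endocytic receptor for SHH, was weakly expressed, with 29.3, 35.4 and 48.5 normalized counts in KYSE70 and 5.07, 3.92 and 22.8 in NRF2null-KYSE70. It fell (log2 difference -2.09, SE 0.58, limma adjusted p = 0.00801). Without the third NRF2null-KYSE70 library, the highest of the clone, its log2 difference was -2.80, and without the second it was -1.66. GPC3, a glypican that competes with PTCH1 for the ligand, had 6782, 6943 and 6850 normalized counts in KYSE70 and 3147, 2988 and 3827 in NRF2null-KYSE70. It fell to 48.4% (log2 difference -1.05, SE 0.077, limma adjusted p = 1.36e-07), although without the second NRF2null-KYSE70 library its log2 difference was -0.98, short of the cut-off.

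**Figure D4:**
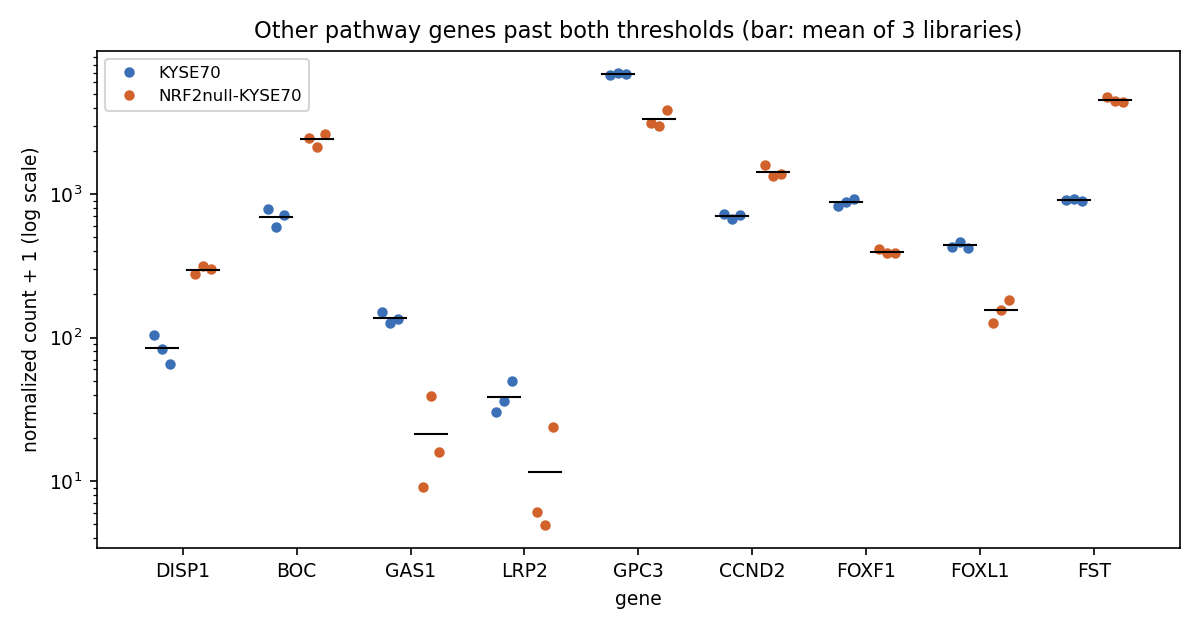
Normalized count plus 1 (log scale) in each KYSE70 (blue) and NRF2null-KYSE70 (orange) library of the 9 other pathway genes past both thresholds, with a bar at the mean of each line. DISP1, BOC, CCND2 and FST are higher and GAS1, LRP2, GPC3, FOXF1 and FOXL1 lower in every NRF2null-KYSE70 library.

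None of the 15 tested genes that act between SMO and the GLI proteins passed both thresholds, beside 14.7% of all genes tested. By the adjusted p alone, 6 were lower and 3 higher, together 60%, near the 57.6% of all genes tested. The lower ones included GPR161, a ciliary receptor that keeps protein kinase A active (log2 difference -0.53, limma adjusted p = 0.000282), and STK36, a kinase related to the fly regulator Fused (-0.62, limma adjusted p = 0.00325). KIF7, the kinesin that organizes GLI proteins at the tip of the cilium, had 820 and 774 normalized counts (log2 difference -0.08, limma adjusted p = 0.559). No gene of ciliary transport passed both thresholds. By the adjusted p alone, 3 of the 8 tested were lower and 1 higher, together 50% beside 57.6% of all genes tested. Among the lower ones was IFT88, a core component of this transport (log2 difference -0.52, limma adjusted p = 0.000188).

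Genes for the phosphorylation and degradation of GLI proteins were mostly a little higher. Of 19 tested, 14 were higher and 1 lower by the adjusted p, that is 73.7% higher beside 29.3% of all genes tested, and none passed both thresholds. Their median log2 difference was 0.37. The kinase genes CSNK1A1 and GSK3B, whose products mark GLI proteins for processing, had log2 differences of 0.49 (limma adjusted p = 5.01e-07) and 0.50 (limma adjusted p = 3.41e-05). SPOP, an adaptor that brings GLI proteins to the ubiquitin ligase of CUL3, had one of 0.45 (limma adjusted p = 1.09e-05). BTRC, the adaptor for GLI3 processing, had one of -0.07 (limma adjusted p = 0.271), whereas its paralog FBXW11 had one of 0.51 (limma adjusted p = 1.17e-05). Some of the 14 higher genes lay where other genes were higher as well. The median log2 difference of the 40 nearest expressed genes was 0.41 for GSK3B, 0.36 for CSNK1G1 and 0.36 for ULK3, whose own log2 differences were 0.50, 0.52 and 0.37. It was 0.11 for CSNK1A1, and over the 14 genes it ran from -0.31 for ITCH to 0.41. The part of the regions was not tested. These genes serve many other substrates, and no test of the list as a set was made. The lower gene was DYRK2, a kinase that phosphorylates GLI2 (2311 ± 26.3 and 1344 ± 163 normalized counts, SD, n = 3 in each line, log2 difference -0.79, limma adjusted p = 3.82e-06), which lies on 12q, where the median log2 difference of its 40 nearest expressed genes was -0.45.

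Of 17 genes known as GLI targets in other tissues, 13 were tested and 4 passed (30.8%, beside 14.7% of all genes tested), 2 in each direction. FST, which encodes the activin-binding protein follistatin, had 914, 925 and 898 normalized counts in KYSE70 and 4756, 4473 and 4388 in NRF2null-KYSE70, a rise of 4.97-fold (log2 difference 2.31, SE 0.059, limma adjusted p = 9.51e-12). CCND2, a G1 cyclin, had 727, 669 and 715 normalized counts in KYSE70 and 1599, 1330 and 1370 in NRF2null-KYSE70. It rose 2.04-fold (log2 difference 1.02, SE 0.086, limma adjusted p = 5.11e-07), and fell short of the cut-off without the second KYSE70 library (0.99) or without the first NRF2null-KYSE70 library (0.94). FOXF1 and FOXL1, forkhead factors that follow Hedgehog signals in gut mesenchyme, lie near each other on chromosome 16, with starts at 86510527 and 86576368. FOXF1 had 831, 880 and 928 normalized counts in KYSE70 and 414, 386 and 387 in NRF2null-KYSE70 and fell to 45.0% (limma adjusted p = 2.76e-07). FOXL1 had 429, 465 and 420 in KYSE70 and 125, 156 and 180 in NRF2null-KYSE70 and fell to 35.1% (limma adjusted p = 2.41e-06). CCND1 and SFRP1, a cyclin and a secreted WNT antagonist, were higher by the adjusted p alone, with log2 differences of 0.63 (limma adjusted p = 9.49e-06) and 0.96 (limma adjusted p = 0.000949). SFRP1 also passed the cut-off without the second KYSE70 library (1.06) or without the second NRF2null-KYSE70 library (1.17). BCL2 (0.25, limma adjusted p = 0.094) and JAG2 (0.07, limma adjusted p = 0.491) did not pass. The targets MYCN, NKX2-2, GREM1 and PDGFRA were at the floor of 3 reads in every library. Among the pathway genes with a promoter window, 53 of 72, none held the GLI consensus, which only 0.236% of all windows held. Of the 4 targets past both thresholds only FST had a window. CCND2, FOXF1 and FOXL1 had none and were not searched, nor were CCND1 and SFRP1. The antioxidant response element core was present in 13 of their 101 windows, beside 13.3% of all windows.

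The neighbours of HHIP did not share its difference in size. Within 1 Mb of the HHIP start, 31 other genes of the table started, HHIP-AS1 among them, and 18 had no reads in any library. Besides HHIP-AS1, 5 were tested, ABCE1, ANAPC10, OTUD4, SMAD1 and MMAA, all beyond the 3′ end of HHIP. None passed both thresholds, and their log2 differences lay between -0.03 for SMAD1 (limma adjusted p = 0.779) and 0.47 for MMAA (limma adjusted p = 0.00447). ABCE1, whose start is 452 kb from that of HHIP, had one of 0.13 (limma adjusted p = 0.0163). The 40 nearest expressed protein-coding genes around HHIP had a median log2 difference of 0.05, and those of 4q one of 0.15. GLI1 lay in a stretch of 12q where other genes were lower as well. The median log2 difference was -0.38 on 12q and -0.56 over the 40 genes nearest to GLI1, all within 1.16 Mb, beside -1.68 for GLI1 itself. Around GLI2 and GLI3 the same local median was 0.12 and 0.04, and around SMO it was 0.33. The part of these regional differences in the values of the members was not tested.

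**Figure D5:**
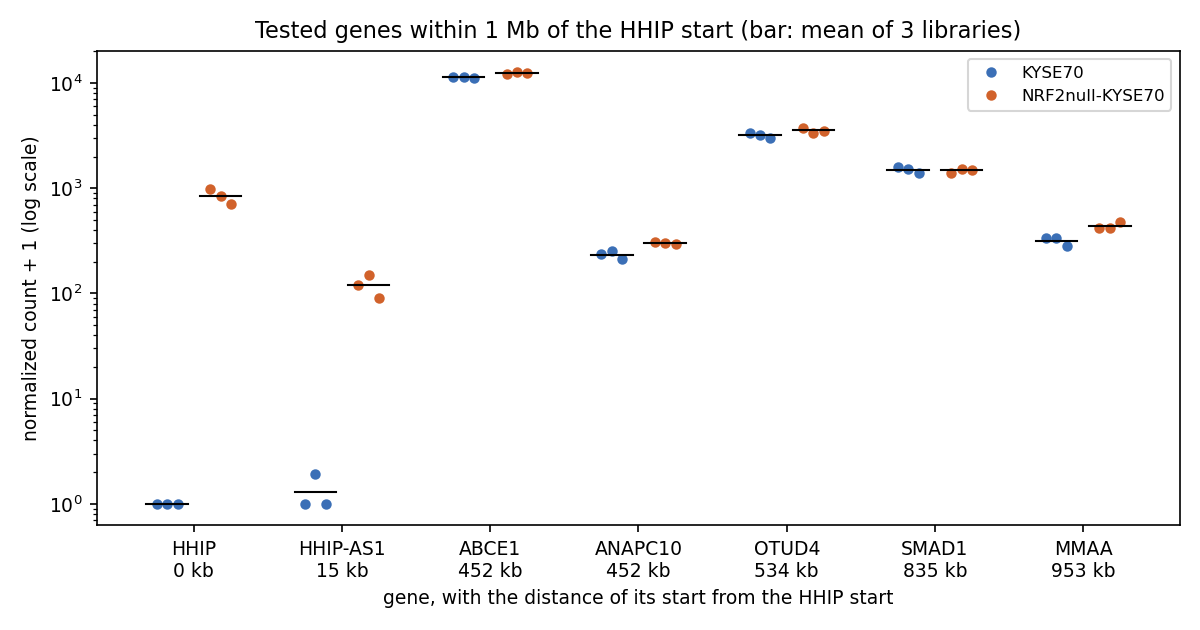
Normalized count plus 1 (log scale) in each KYSE70 (blue) and NRF2null-KYSE70 (orange) library of the 7 tested genes that start within 1 Mb of the HHIP start, in order of distance, with a bar at the mean of each line and the HHIP-AS1 start as GENCODE places it, 15.2 kb inside HHIP. HHIP and HHIP-AS1 go from at most 1 read per library to means of 847 and 119, and the other 5 genes have log2 differences between -0.03 and 0.47.

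The genes most like HHIP and GLI1 across the 6 libraries were named by Pearson's correlation of log2(normalized count + 1) over 11996 other genes with a mean of at least 100. For HHIP they were F3, ETV5, FST, PLIN3 and MAFF, with r from 0.99988 to 0.99995. For GLI1 they were GTF3C5, CTNNB1, FLRT3, TMBIM6 and SKP2, with r from 0.99915 to 0.99968. The libraries fall into 2 lines, so r near 1 shows a difference between the lines with little spread within them, and no test was made. The sizes differed widely among these genes. F3, which encodes tissue factor, had means of 2787 ± 28.7 and 33239 ± 1863 normalized counts (SD, n = 3 in each line) and a log2 difference of 3.57, whereas PLIN3 had one of 0.52. Among those like GLI1, FLRT3 had a log2 difference of -1.23 and TMBIM6 one of -0.34.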

How the data were processed

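RNA was sequenced (150 bp reads) from 3 KYSE70 and 3 NRF2null-KYSE70 libraries. Per the study's methods and the submitters' processing notes, the authors aligned reads with STAR to hg38, counted them per gene with featureCounts 1.5.1 and normalized with DESeq2. The deposited values are a signal in normalized counts, that is, the reads of a gene over a size factor for the library. A RefSeq annotation is named in the methods, but identifiers in the table are from Ensembl, and the use of strand is not given in the sources used here. Column names show the line without a replicate number, and libraries are named in table order. Whole reads were recovered for 100% of values (within 0.1 read).

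Positions and exon lengths came from GENCODE v44 (hg38), which held 58472 of 58884 identifiers. The 15994 genes with a mean of at least 10 were tested two-sided with limma 3.58.1 (trend) on log2(normalized count + 1), which understates folds of low genes, with Benjamini-Hochberg adjustment. The procedure was checked on simulated counts. These held no regional shifts and no genes absent from 1 line, so the check does not cover a gene like HHIP. Groups with 3 reads or fewer in each library count as at the floor, and folds against them are bounds. The alternatives tried were a filter at 50 and no filter, pseudocounts of 0.1 and 5, TMM and total scaling, limma without trend, DESeq2 1.42.0, edgeR 4.0.16, subtraction of the arm median and leaving out each library. Subtraction of the median of the 40 nearest genes was added after seeing the data. Members and lists were chosen with earlier results of these data known. Besides the members, the named genes are all pathway genes past the threshold, genes near or overlapping HHIP, the 5 genes most like HHIP and like GLI1, and examples chosen after their values were seen. A few pathway genes that enter the counts are not reported here by name.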

Additional observations from a re-analysis of the deposited data

How the results depend on the processing

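The directions of PTCH1, SMO, SUFU, GLI1, GLI2 and GLI3 held under all 17 alternatives run for each, and the lowest fold of HHIP stayed between 272 and 321. The fitted log2 difference of HHIP, 9.71, depends on the pseudocount or model because KYSE70 had no reads. It was 13.03 with a pseudocount of 0.1, 7.40 with 5, 12.25 with DESeq2 and 12.74 with edgeR. Subtracting the arm median gave -0.27 for SMO, -1.30 for GLI1 and -0.84 for GLI2, and subtracting the median of the 40 nearest genes gave -0.44, -1.12 and -0.91. GLI2 was -0.86 under total scaling. Leaving out each library gave ranges of 9.59 to 9.84 for HHIP, 0.07 to 0.23 for PTCH1, -0.15 to -0.06 for SMO, -0.30 to -0.16 for SUFU, -1.78 to -1.60 for GLI1, -0.82 to -0.75 for GLI2 and -0.75 to -0.51 for GLI3.

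The count of 9 other pathway genes past the threshold lay between 8 and 12 under all alternatives except the adjusted p alone, which gave 42. Leaving out each library gave 8 to 11. Of all genes, 2344 passed, 1511 with a filter at 50 (13004 genes tested) and 9206 by the adjusted p alone. DISP1, BOC, GAS1, FOXF1, FOXL1 and FST were called under all 16 alternatives, and LRP2 under the 15 in which it was tested. CCND2 was also lost under total scaling (0.95) and, with GPC3, after the arm median was subtracted (0.96 and -0.97). SFRP1 was gained after that subtraction (1.34). SCUBE1, SCUBE2 and EVC2 were called where no filter was used (2.32, 2.00 and -2.89). SCUBE1 was also gained on leaving out any 1 KYSE70 library (1.97 to 2.79), and SCUBE3 without the first KYSE70 library (1.01, beside 0.49).

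With the longest transcript as the length, KYSE70 means per kb were 1168 for SMO, 380.2 for SUFU and 334 for GLI2. They were 234 for GLI3, 134 for PTCH1 and 128 for GLI1. The means of SUFU and GLI2, and of PTCH1 and GLI1, thus changed places, but the libraries of PTCH1 and GLI1 overlapped. In NRF2null-KYSE70 the means were 1089, 328, 194, 154, 149 and 39.75 in the same order of genes, and 85.2 for HHIP. With this length every NRF2null-KYSE70 library of PTCH1 was above every one of HHIP. No paired analysis was possible because the columns of the table carry no replicate numbers. With 3 libraries per line no test for a library far from the others was made.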
